A study of Mus musculus with 1094 samples.

Results

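Newborn neurons (NBN) of the mouse dorsal cortex at embryonic stage E18.5 were set against the basal progenitors (BP) of the same day, as 1 library of single cells a side. Cells were chosen by the library they belong to and by a minimum of 1000 genes at 1 TPM or more. TPM is a length-scaled share of a cell's transcripts, so levels of different genes can be compared within a cell. This kept 66 of 70 NBN cells and 61 of 62 BP cells, together 127 of the 1094 cells in the series. The NBN cells left out held 8 to 111 such genes and the BP cell left out held 980, while the poorest cells kept held 1682 in NBN and 1698 in BP. Embryos were female, on a C57Bl/6 background, labelled wild-type, and carried the Tbr2::GFP transgene, in which green fluorescent protein is driven from the Tbr2 (Eomes) gene's promoter. Both populations were GFP-positive cells of that sort, taken from dissociated dorsal cortex and captured on Fluidigm C1 arrays. The labels do not say how the sort divided NBN from BP, and they name no animals, litters or batches. Each group is therefore 1 sample, population and capture cannot be told apart, and no test was made. For comparison the report uses NBN at E16.5 (63 cells), P1 (39 cells) and P3 (39 cells) of the same reporter. It also uses BP of that reporter at E12.5 (72 cells), E14.5 (45 cells), E16.5 (79 cells) and P0 (75 cells). Neural stem cells (NSC) at E18.5 (66 cells), which were sorted by Hes5::GFP, are used as well. The labels give ages of 1 day after birth for P0 BP, 2 days for P1 NBN and 4 days for P3 NBN.

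Basal progenitors are transit cells of the subventricular zone that arise from radial glia, express the T-box factor Eomes (Tbr2) and divide to give pairs of excitatory neurons. Their daughters leave the cell cycle, pass through a multipolar stage and migrate along radial glia into the cortical plate, where they extend axons and form synapses. In this lineage the small GTPase Rnd2 acts in the multipolar stage, and the adaptor Dab1 relays the reelin signal that guides neurons to their layer. Neurons born late in corticogenesis settle in the upper layers.

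The gene of the reporter was read first. Eomes (chr9:118478212-118486132, plus strand, GRCm38) reached 1 TPM in 7 of 66 NBN cells (10.6%, exact 95% interval 4.37 to 20.6) against 46 of 61 BP cells (75.4%, 62.7 to 85.5). All such intervals cover counting error only. In NBN cells Eomes ran from 0 over a median of 0.0760 to 2195 TPM, and in BP cells from 0.0105 over 9.13 to 1381 TPM. The NBN mean of 33.7 TPM, against 172 TPM in BP, rests on the single cell at 2195 TPM: without it the NBN mean was 0.421 TPM. Only 1 NBN cell but 30 BP cells reached 10 TPM. The sort was made on this gene's reporter, so its difference cannot be told apart from the sort itself. Hes5, the reporter gene of the NSC sort, was at 0 in every NBN cell, reached 1 TPM in 1 BP cell, and averaged 30.3 TPM in NSC at E18.5. Across the 17 libraries mean Eomes ran from 0.353 TPM (NBN, P3) to 373 TPM (NSC, E17.5), so stem cell libraries sorted on Hes5 also held Eomes transcripts.

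The libraries were alike in genes per cell and in mitochondrial share. NBN cells held a median of 4809 genes at 1 TPM or more and BP cells 4936, and mitochondrial genome transcripts took a median of 7.51% of TPM in NBN cells and 7.41% in BP cells. The labels were checked against marker lists. Among the transcripts that define young neurons, Tubb3 (neuronal beta-tubulin) reached 1 TPM in 65 of 66 NBN and 57 of 61 BP cells. The microtubule protein Dcx did so in 64 NBN and 61 BP cells, and the bHLH factor Neurod6 in 63 NBN and 58 BP cells. Nearly all BP cells thus held these neuronal transcripts. Other markers of young neurons were in fewer of them: at 10 TPM or more Stmn2 was found in 33 and Gap43 in 16 of 61 BP cells. Of the transcripts of dividing cells, Top2a reached 1 TPM in 5 NBN and 3 BP cells and Mki67 in 8 NBN and 9 BP cells. Others were more widespread: 3 or more of 25 G2/M genes reached 10 TPM in 22 NBN and 25 BP cells. The proneural factor Neurog2 reached 1 TPM in 3 NBN and 7 BP cells, and Neurog1 was at 0 in every cell of both libraries. BP and NBN are used below as the labels' names for the libraries.

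Of 10198 genes with a mean of 1 TPM or more that were detected in 10% of cells or more, both as means over the libraries, 184 (1.8%) were called higher and 373 (3.66%) lower in NBN, together 5.46%. A gene was called where log2(mean TPM + 1) differed by 1 or more and where the NBN cell was the higher of an NBN-BP pair of cells in a share of at least 0.65, or at most 0.35, of all pairs (ties counted as 0.5). This pair share keeps a few extreme cells from making a call. Over all genes the median difference was -0.11. Differences are given as NBN minus BP on the log2(mean TPM + 1) scale, which understates those of low genes.

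The transcription factor Mef2c, which acts in the differentiation of cortical excitatory neurons, had the largest difference. Mef2c (chr13:83504034-83667080, plus strand) ran from 0 over a median of 245 to 2805 TPM in NBN cells and from 0 over 0 to 23.8 TPM in BP cells. It reached 1 TPM in 58 of 66 NBN cells (87.9%, interval 77.5 to 94.6) against 10 of 61 BP cells (16.4%, 8.15 to 28.1). The lower quartile of NBN cells, 23.4 TPM, lay above the upper quartile of BP cells, 0 TPM. The means were 496 TPM in NBN and 1.64 TPM in BP, a difference of 7.56 with a pair share of 0.91. At E16.5, in other libraries, Mef2c averaged 443 TPM in NBN and 13.2 TPM in BP (4.96).

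Dab1 (chr4:103619359-104744844, plus strand) separated the libraries as far by pairs. It ran from 0 over 255 to 1969 TPM in NBN cells and from 0 over 0 to 498 TPM in BP cells, at 1 TPM or more in 58 of 66 NBN and 7 of 61 BP cells. Means were 352 TPM in NBN and 19.1 TPM in BP, a difference of 4.14 with a pair share of 0.91. At E16.5 it averaged 349 TPM in NBN and 31.2 TPM in BP. Its partner at the membrane, the reelin receptor Vldlr, was also called higher, at 54.0 TPM in NBN and 10.1 TPM in BP (2.31), though it reached 1 TPM in 27 NBN cells against 7 BP cells. The other reelin receptor, Lrp8, was at 118 TPM in NBN and 144 TPM in BP and was not called.

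Gap43, a protein of growing axon tips, ran from 0 over 264 to 3371 TPM in NBN cells and from 0 over 0 to 1412 TPM in BP cells. Its means were 508 TPM in NBN and 62.4 TPM in BP (3.00, pair share 0.78), and the libraries overlapped.

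Rnd2 (chr11:101464999-101471853, plus strand) lay on the BP side. It ran from 0 over 0 to 373 TPM in NBN cells and from 0 over 138 to 4065 TPM in BP cells. It reached 1 TPM in 9 of 66 NBN cells (13.6%, interval 6.43 to 24.3) against 39 of 61 BP cells (63.9%, 50.6 to 75.8). Means were 12.9 TPM in NBN and 482 TPM in BP, a difference of -5.12 with a pair share of 0.21. At E16.5 the means were 32.2 TPM in NBN and 508 TPM in BP (-3.94).

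Sema3c (chr5:17574281-17730268, plus strand), a secreted semaphorin that steers axons and migrating cells, ran from 0 over 0 to 740 TPM in NBN cells and from 0 over 77.1 to 1705 TPM in BP cells. It was at 1 TPM or more in 8 NBN cells against 46 BP cells. Means were 34.6 TPM in NBN and 222 TPM in BP (-2.65, pair share 0.15). Unc5d (chr8:28646717-29219636, minus strand), a netrin-family receptor found in the subventricular zone, was spread over more NBN cells. It ran from 0 over 0.840 to 328 TPM in NBN cells and from 0 over 68.3 to 814 TPM in BP cells, with means of 17.8 TPM in NBN and 161 TPM in BP (-3.10, pair share 0.24).

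**Figure D1:**
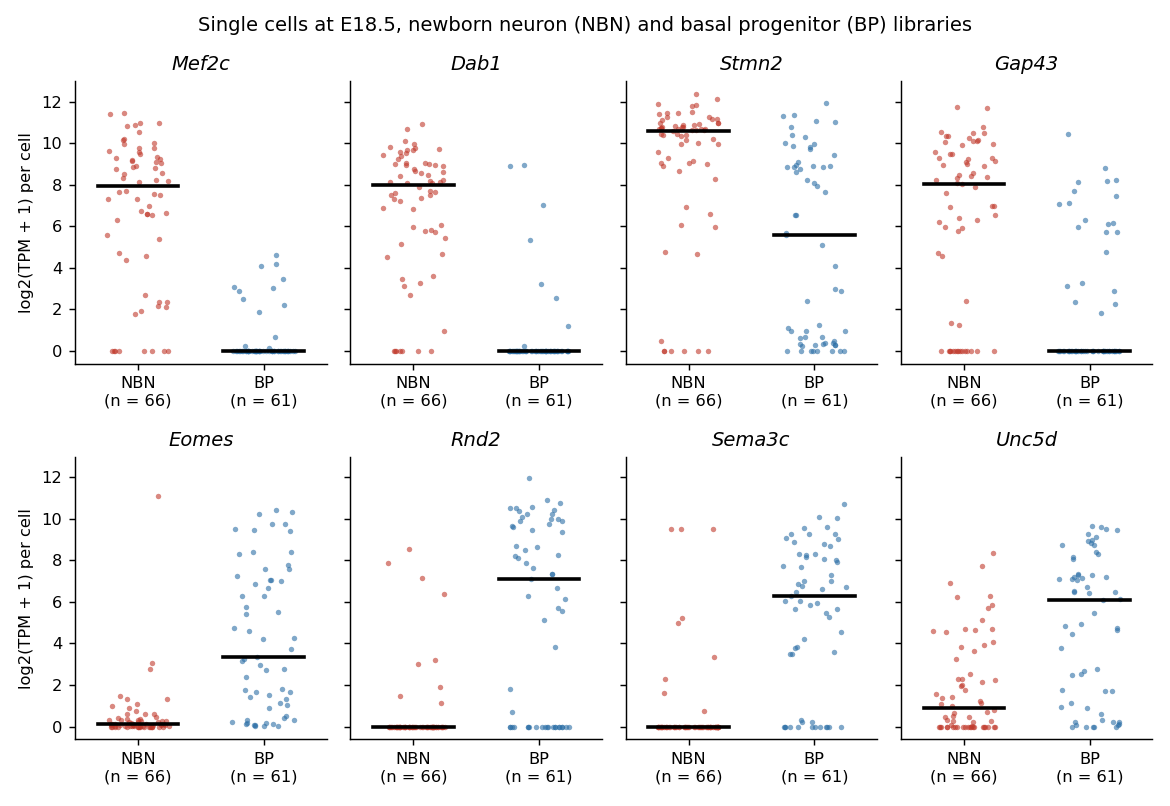
Each point is 1 cell at E18.5, with log2(TPM + 1) on the vertical axis, NBN cells (n = 66) left and BP cells (n = 61) right in each panel, and a black bar at the median. Mef2c and Dab1 were at 0 in most BP cells, Stmn2, a microtubule protein of young neurons, and Gap43 overlapped between the libraries, and Eomes, Rnd2, Sema3c and Unc5d lay higher in BP cells, with 1 NBN cell at the top of the Eomes panel.

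These transcripts were also read within cells. At 10 TPM or more, Mef2c was found in 51 and Dab1 in 55 of 66 NBN cells, and 46 NBN cells held both Mef2c and Dab1. In BP, Mef2c and Dab1 were each found in 4 of 61 cells. Of the BP-side transcripts, Rnd2 was found in 4 NBN and 38 BP cells and Sema3c in 5 NBN and 46 BP cells. Of the 30 BP cells with Eomes, 18 also held Rnd2 and 0 held Mef2c. Beside 38 of all 61 BP cells with Rnd2 and 4 with Mef2c, these counts do not set the cells with Eomes apart.

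The 15 named genes with the largest positive differences, leaving out models without a gene name, cover signalling, adhesion and the cytoskeleton. After Mef2c came Dync1i1, an intermediate chain of the dynein motor, at 182 TPM in NBN and 0.212 TPM in BP (7.24), found at 1 TPM in 31 NBN cells and 1 BP cell. Ldb2, a cofactor of LIM-domain transcription factors, was at 79.9 TPM in NBN and 0.119 TPM in BP (6.17), in 27 NBN cells and 1 BP cell. Both subunits of soluble guanylate cyclase, the nitric oxide receptor, were among them. Gucy1a3 averaged 103 TPM in NBN with 26 cells at 1 TPM and was listed at 0 in every BP cell. Gucy1b3 averaged 21.3 TPM in NBN and 0.275 TPM in BP (4.13). The synaptic adhesion protein Lrfn5 averaged 47.8 TPM in NBN and was likewise listed at 0 in every BP cell. Fam19a2, which encodes a secreted chemokine-like protein, was at 123 TPM in NBN and 0.459 TPM in BP (6.41).

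The others were the adaptor Sla (5.90), the orphan receptor Gpr12 (5.14), the actin-binding Ablim1 (5.11), the calsyntenin Clstn2 (4.62), the adhesion protein Ntm (4.54), the receptor phosphatase Ptpro (4.54), the septin Sept6 (4.20) and Dab1. Apart from Mef2c, Dab1 and Ntm, each of the 15 was absent at 1 TPM from 26 or more NBN cells, so most of these levels came from part of the library. At E16.5 the difference was positive for 15 of the 15 and 14 were called higher there, with a median difference of 3.44. Over all genes entered at E16.5, 5.73% were called higher.

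The 15 with the largest negative differences were led by Ezr, which encodes ezrin, a linker of the membrane to actin, at 2.95 TPM in NBN and 147 TPM in BP (-5.23). It reached 1 TPM in 7 NBN and 32 BP cells. Cdk6, a kinase that drives cells through G1, averaged 5.49 TPM in NBN and 202 TPM in BP (-4.97), with cell medians of 2.42 TPM in NBN and 6.11 TPM in BP and a highest BP cell at 4117 TPM. Pcp4, a calmodulin-binding peptide, averaged 8.43 TPM in NBN and 219 TPM in BP (-4.54). Fabp7, a fatty acid binding protein of radial glia, averaged 24.0 TPM in NBN and 355 TPM in BP (-3.84). The growth factor Nrg1 averaged 11.2 TPM in NBN and 133 TPM in BP (-3.46). Pcp4, Fabp7 and Nrg1 were each at 1 TPM in 5 to 7 NBN cells and 25 to 27 BP cells.

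The rest included the linker histone Hist1h1e (-5.13), Rnd2, Igsf5 (-3.60), the deacetylase Hdac9 (-3.56), Ttyh2 (-3.36), the ubiquitin-like Isg15 (-3.35), the phosphatase subunit Smek1 (-3.15), the synaptic adhesion protein Lrrtm4 (-3.11) and Unc5d. The mean of Hist1h1e in BP, 69.7 TPM, includes 1 cell at 2390 TPM, and its difference was 1.42 at E16.5. At E16.5 the difference was negative for 12 of the 15 and 5 were called lower there, with a median of -1.38. Only 0.889% of all genes entered at E16.5 were called lower, against 5.73% higher. With values under 10 TPM set to 0 before cells were paired, 13 of the 15 higher and 8 of the 15 lower genes were still called.

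The named genes separated single cells, although they were picked from these cells. At 10 TPM or more an NBN cell held a median of 7 (1 to 13) of the 15 higher and 1 (0 to 5) of the 15 lower genes, and a BP cell 0 (0 to 4) of the higher and 6 (1 to 12) of the lower ones. More of the higher than of the lower set was found in 59 of 66 NBN cells and in 1 of 61 BP cells. In libraries that had no part in the choice, the same was true of 55 of 63 NBN cells and 8 of 79 BP cells at E16.5. It was also true of 6 of 75 BP cells at P0, 38 of 39 NBN cells at P1 and 4 of 66 NSC cells at E18.5. NBN at P3 differed from the other NBN libraries: only 14 of 39 cells (35.9%) held more of the higher set, 10 held equal numbers, and the median was 2 genes of either set. In that library 38 of 39 cells also held 3 or more markers of another cell type at 10 TPM or more, against 13 of 66 NBN cells at E18.5.

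**Figure D2:**
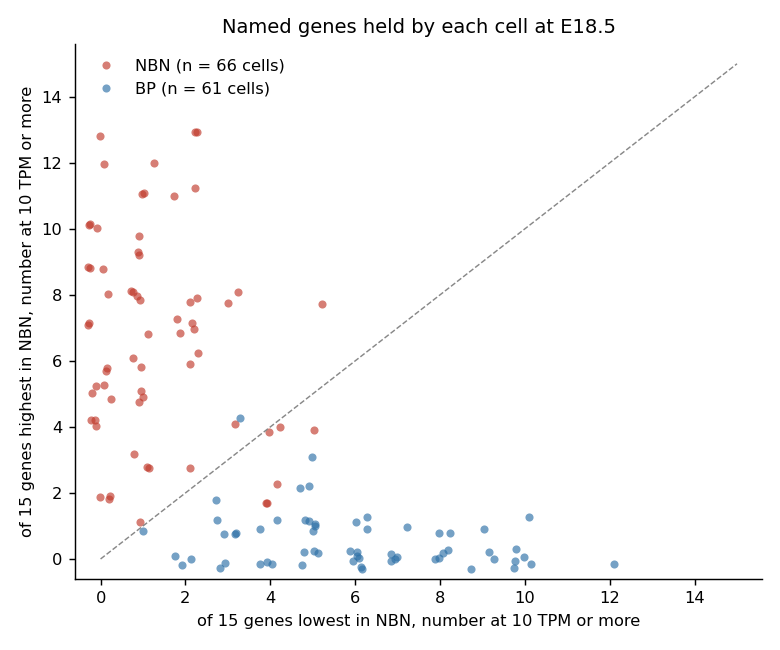
Each point is 1 cell at E18.5, with the number of the 15 genes highest in NBN found at 10 TPM or more on the vertical axis and the number of the 15 lowest on the horizontal axis, jittered by less than 0.5; the dashed line marks equal numbers. Of the NBN cells 59 lie above the line, and of the BP cells 1.

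Promoters were then read for motifs. Shown are 300 bases (250 before and 50 after the first listed start, RefSeq, GRCm38.p6) of Mef2c, which had the largest difference, and Eomes, the gene of the reporter. They are followed by Cntn1, an axonal adhesion protein, Dlg2, a postsynaptic scaffold, and Ywhah, a 14-3-3 protein. These are the 3 named genes with the largest positive differences whose promoter matched a loose form of the Mef2 motif. Capitals mark matches on either strand to that loose form (CTA and TAG with any 4 bases between, not only A or T). They also mark CAGATG or CAGCTG (E-boxes of proneural factors) and AGGTGT (a T-box site), and no motif contains another. The middle bases of the loose match are AGGG in Cntn1, TATA in Dlg2 and TTTA in Ywhah.
Mef2c, chr13:83503784-83504083, plus strand: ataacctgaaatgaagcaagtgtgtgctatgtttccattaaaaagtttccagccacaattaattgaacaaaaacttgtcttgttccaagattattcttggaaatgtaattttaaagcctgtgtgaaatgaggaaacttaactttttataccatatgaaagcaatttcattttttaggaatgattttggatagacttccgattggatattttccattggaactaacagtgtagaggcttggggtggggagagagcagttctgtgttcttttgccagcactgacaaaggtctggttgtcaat
Eomes, chr9:118477939-118478238, plus strand: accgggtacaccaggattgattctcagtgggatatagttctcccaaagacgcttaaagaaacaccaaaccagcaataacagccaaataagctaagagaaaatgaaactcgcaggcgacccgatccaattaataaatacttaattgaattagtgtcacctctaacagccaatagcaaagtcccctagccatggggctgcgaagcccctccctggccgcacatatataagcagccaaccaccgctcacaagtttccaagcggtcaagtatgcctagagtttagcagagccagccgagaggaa
Cntn1, chr15:92050915-92051214, plus strand: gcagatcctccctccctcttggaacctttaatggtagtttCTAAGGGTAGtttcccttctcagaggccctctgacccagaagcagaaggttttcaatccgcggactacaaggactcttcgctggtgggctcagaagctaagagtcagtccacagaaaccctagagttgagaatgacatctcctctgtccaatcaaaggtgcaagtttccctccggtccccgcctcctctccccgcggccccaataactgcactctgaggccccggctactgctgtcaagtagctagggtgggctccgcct
Dlg2, chr7:91090536-91090835, plus strand: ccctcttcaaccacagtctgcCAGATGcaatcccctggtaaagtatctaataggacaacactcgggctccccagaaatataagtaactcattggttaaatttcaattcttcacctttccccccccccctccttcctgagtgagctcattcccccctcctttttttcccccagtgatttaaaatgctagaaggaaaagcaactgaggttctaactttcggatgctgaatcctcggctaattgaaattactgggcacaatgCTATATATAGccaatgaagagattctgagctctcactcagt
Ywhah, chr5:33018566-33018865, plus strand: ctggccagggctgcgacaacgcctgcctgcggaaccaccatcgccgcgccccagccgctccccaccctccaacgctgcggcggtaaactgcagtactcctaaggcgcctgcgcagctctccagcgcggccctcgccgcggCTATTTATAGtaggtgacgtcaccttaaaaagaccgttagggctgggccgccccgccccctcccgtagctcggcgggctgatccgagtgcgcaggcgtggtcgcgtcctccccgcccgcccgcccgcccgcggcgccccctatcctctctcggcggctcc

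Cntn1 averaged 23.7 TPM in NBN and 0.726 TPM in BP (3.84), Dlg2 24.0 TPM in NBN and 4.87 TPM in BP (2.09), and Ywhah 216 TPM in NBN and 64.8 TPM in BP (1.72). The loose form of the Mef2 motif was found in 9 of 131 promoters of genes called higher (6.87%, interval 3.19 to 12.6) and in 8 of 265 of genes called lower (3.02%). These counts include matches whose middle bases are not all A or T. It was found in 201 of 7349 promoters of all genes entered (2.74%) and in 3.70% of the 27025 promoters in the table. Of the 9, 4 belong to models without a gene name, some of them near-identical copies. Among genes with a name it was found for 5 called higher (4.76%, 1.56 to 10.8) and for 2.65% of 6978 entered, which lies inside that interval. CAGATG was found in 12.2% of promoters of genes called higher, 13.2% of those called lower and 10.8% of those entered (17.2% of the table). CAGCTG was found in 15.3%, 16.6% and 14.0% of the same sets (16.1%), and AGGTGT in 13.0%, 12.45% and 10.8% (13.9%). The promoters of Mef2c, Eomes and Dab1 held none of the 4 motifs in this window, and that of Sema3c held 1 CAGATG. For Dab1 the window (chr4:104367288-104367587) lies inside the gene and not at the start of the coordinates given above. A promoter at that start was not read.

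The gene lists were then read as groups, first the markers of basal progenitors. Over all genes 1.8% were called higher and 3.66% lower, so 0 or 1 calls in a list do not set it apart. Of 21 such genes 16 entered, 0 were called higher and 5 lower, with a median difference of -1.78 against -0.11 over all genes. The 5 were Eomes, Rnd2, the bHLH factor Neurod1 (74.7 TPM in NBN and 321 TPM in BP, -2.09), Rasgef1b, an exchange factor for Ras-family GTPases (66.4 TPM in NBN and 234 TPM in BP, -1.81), and Igfbpl1 (101 TPM in NBN and 227 TPM in BP, -1.17). Of the 11 not called, Nhlh1, a bHLH factor, was at 0 in every NBN cell and reached 1 TPM in 16 BP cells. The matrix protein Mfap4 did so in 6 NBN and 15 BP cells, with a pair share of 0.38. The somatostatin receptor Sstr2 was at 146 TPM in NBN and 292 TPM in BP (-0.99) with a pair share of 0.25, just short of the call. Btg2, a marker of neurogenic divisions, was at 121 TPM in NBN and 84.4 TPM in BP and was not called. In single cells a median of 3 (0 to 9) of the 21 markers reached 10 TPM in NBN and 7 (3 to 13) in BP.

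Markers of young neurons differed less. At 10 TPM or more NBN cells held a median of 13 and BP cells a median of 10 of the 16. Of 16 that entered, 3 were called higher and 0 lower, with a median of 0.51. These were the microtubule proteins Stmn2 (1454 TPM in NBN and 471 TPM in BP, 1.62) and Mapt, or tau (794 TPM in NBN and 213 TPM in BP, 1.90), and Gap43. Stmn2 ran from 0 over 1543 to 5300 TPM in NBN cells and from 0 over 47.3 to 3946 TPM in BP cells. Dcx (572 TPM in NBN and 483 TPM in BP, 0.24), Neurod6 (1759 TPM in NBN and 1261 TPM in BP, 0.48) and Map2 (0.53) were not called. Tubb3, at 5031 TPM in NBN and 2955 TPM in BP, had a pair share of 0.73 but a difference of 0.77, short of the threshold.

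Microtubule genes, of which 20 entered, gave 4 higher and 0 lower calls with a median of 0.80. Beside Mapt and Stmn2 they were the tubulin Tubb2a (926 TPM in NBN and 294 TPM in BP, 1.65) and the microtubule binder Map1b (1599 TPM in NBN and 719 TPM in BP, 1.15). Tubulin isotypes share much of their sequence, so the split of reads between them is uncertain.

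A few layer identity genes were called, beside 1.8% higher and 3.66% lower over all genes. Of 13 upper-layer genes 2 were called higher, among them Mef2c, and 2 lower, Unc5d and the POU factor Pou3f2 (207 TPM in NBN and 640 TPM in BP, -1.63), with a median of 0.41. Cux2, a homeobox gene of upper-layer neurons and their progenitors, was at 44.8 TPM in NBN and 89.9 TPM in BP (-0.99) and Cux1 at 121 TPM in NBN and 174.5 TPM in BP (-0.52). Both were uncalled. Of 9 deep-layer genes 1 was called higher, Ldb2, and 0 lower (median 0.66). Bcl11b, a zinc finger factor of subcortically projecting neurons, reached 10 TPM in 11 NBN and 9 BP cells. Fezf2, which specifies those neurons, did so in 5 NBN and 5 BP cells.

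A few migration genes were called in each direction, beside 1.8% higher and 3.66% lower over all genes. Of 20, 3 were called higher (Dab1, Vldlr and the membrane glycoprotein Gpm6a, at 1973 TPM in NBN and 871 TPM in BP, 1.18) and 3 lower (Rnd2, the related GTPase Rnd3, at 20.7 TPM in NBN and 142 TPM in BP, -2.72, and Sema3c), with a median of -0.16. Of 18 axon guidance and adhesion genes, 1 was called higher, the axonal adhesion protein Cntn2 (136 TPM in NBN and 45.7 TPM in BP, 1.56). The netrin receptor Dcc (17.2 TPM in NBN and 134 TPM in BP, -2.89) and the ephrin receptor Epha4 (61.4 TPM in NBN and 231 TPM in BP, -1.89) were called lower. Their median was 0.18.

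Most synaptic genes were not called. Of 21 vesicle and synapse genes, 4 were called higher and 0 lower, 15 had positive and 6 negative differences, and the median was 1.12. The median was 0.60 with log2 values averaged over cells and 0.63 at a pseudocount of 10. They were the calcium sensors Syt1 (60.4 TPM in NBN and 6.48 TPM in BP, 3.04) and Syt4 (463 TPM in NBN and 112 TPM in BP, 2.04), the kinase subunit Camk2b (153 TPM in NBN and 13.0 TPM in BP, 3.46) and the scaffold Shank1 (25.0 TPM in NBN and 10.5 TPM in BP, 1.18). Syt1 reached 1 TPM in 31 NBN cells and 6 BP cells, so it was below 1 TPM in 35 NBN cells. Snap25, a fusion protein of vesicles, was at 321 TPM in NBN and 465 TPM in BP (-0.54). The largest negative difference of the list, Syp, rests on few cells: it reached 1 TPM in 3 NBN and 10 BP cells, 1 of them at 7399 TPM. Of 13 glutamate and GABA receptor genes, 2 were called higher and 0 lower (median 1.03). Among them was the NMDA receptor subunit Grin2b (62.4 TPM in NBN and 17.9 TPM in BP, 1.75). Of 14 ion channel genes, 1 was called higher and 0 lower, beside 1.8% higher and 3.66% lower over all genes.

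The cell cycle lists gave a few lower calls and no higher ones. For G2/M these depended on the setting: 0 were lower at a pseudocount of 10, at a difference of 2 and with values under 10 TPM set to 0, and 1 to 4 in the other settings. At E16.5 G1/S genes gave 0 higher and 1 lower call (median 0.55), and G2/M genes 1 higher and 0 lower (median -0.24). At 10 TPM, 3 or more G1/S genes were found in 51 of 66 NBN and 57 of 61 BP cells, and 3 or more G2/M genes in 22 NBN and 25 BP cells. Of 22 G1/S genes 14 entered, 0 were called higher and 2 lower (median -0.90). They were the cyclin Ccnd2 (24.8 TPM in NBN and 202 TPM in BP, -2.98) and the helicase Hells (5.61 TPM in NBN and 31.3 TPM in BP, -2.29). Of 25 G2/M genes only 8 entered, 0 higher and 2 lower (median -1.07), Cenpf (2.58 TPM in NBN and 8.21 TPM in BP) and Kif11 (7.15 TPM in NBN and 18.0 TPM in BP). The most G2/M genes at 10 TPM or more in any cell was 6 in NBN and 23 in BP. Among 8 genes of cell cycle exit, the inhibitor Cdkn1b was called lower, at 25.5 TPM in NBN and 105.3 TPM in BP (-2.0). It ran over cell medians of 14.6 TPM in NBN and 88.9 TPM in BP, with a pair share of 0.17. Of 9 Notch pathway genes 0 were called, the ligand Dll1 at 4.96 TPM in NBN and 50.6 TPM in BP with a pair share of 0.49.

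Radial glia markers gave 1 higher and 2 lower calls of 10 (median -0.27). The phosphatase Ptprz1 was higher (143 TPM in NBN and 45.2 TPM in BP, 1.64), and Fabp7 and the homeobox factor Pax6 lower. Pax6 was found in nearly every cell at a low level, 64 of 66 NBN and 61 of 61 BP cells, with cell medians of 14.52 TPM in NBN and 38.1 TPM in BP and a pair share of 0.10. Sterol synthesis genes gave 2 higher calls of 12, the synthase Hmgcs1 (541 TPM in NBN and 246 TPM in BP, 1.13) and Fdft1, which makes squalene (361 TPM in NBN and 111 TPM in BP, 1.69). The feedback protein Insig1 was called lower (37.3 TPM in NBN and 88.3 TPM in BP, -1.22), and the median was 0.94. Of 15 glycolysis genes, Pgam1 was called higher (203 TPM in NBN and 94.2 TPM in BP, 1.10) and 0 lower (0.64). Of 18 neuronal RNA-binding genes, Elavl2 (85.0 TPM in NBN and 242 TPM in BP, -1.50) and the splicing regulator Srrm4 (29.8 TPM in NBN and 65.8 TPM in BP, -1.12) were called lower and 0 higher (0.20). Oxidative phosphorylation (20 genes, -0.03), mitochondrial genome (13, 0.25), BAF chromatin remodelling (14, -0.49) and immediate early genes (8, -0.47) gave 0 calls, and 7 Mef2 and activity factors gave Mef2c alone. With 1.8% higher and 3.66% lower over all genes, 0 calls in lists of this size do not set them apart.

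**Figure D3:**
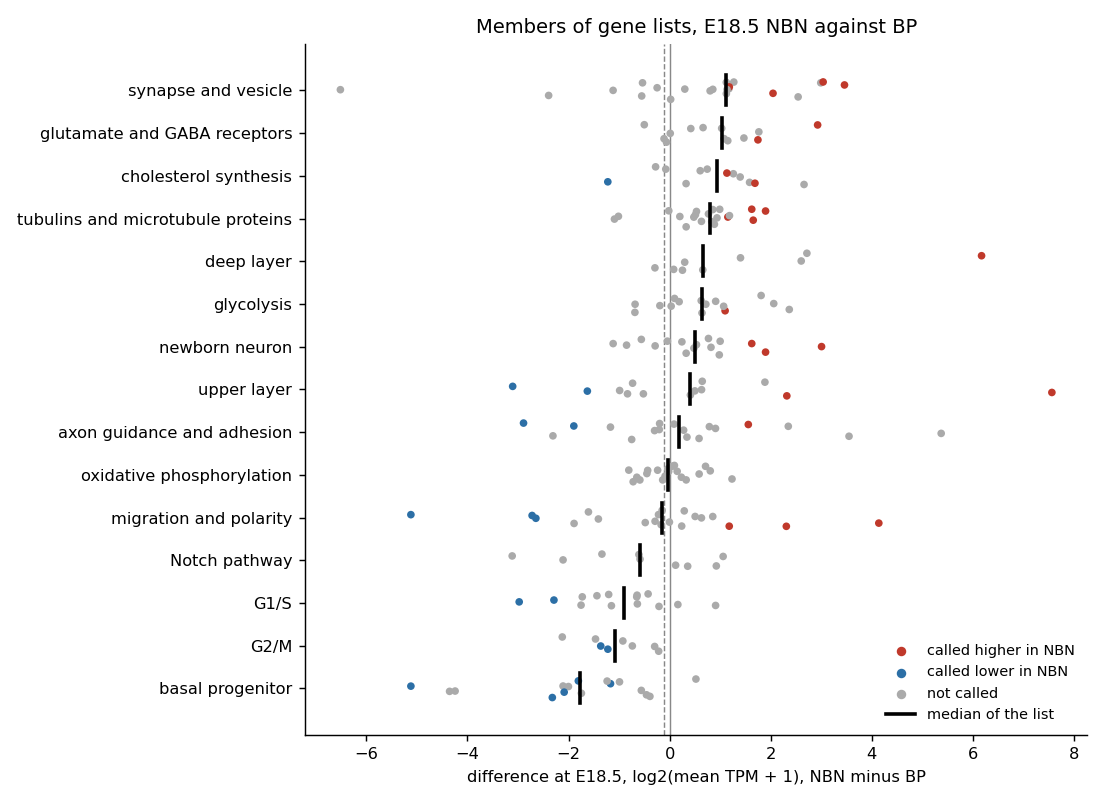
Each point is 1 gene of a list at its difference in log2(mean TPM + 1), NBN minus BP at E18.5, red where called higher in NBN, blue where called lower and grey where not called; black bars are list medians, the dashed line the median of all genes (-0.11). The medians run from 1.12 for synapse and vesicle genes to -1.78 for basal progenitor genes, and most members of every list were not called.

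Markers of other cell types were counted beside these groups. In NBN 13 of 66 cells and in BP 8 of 61 cells held 3 or more markers of another type at 10 TPM or more. In NBN they were 9 astroglial, 3 interneuron, 2 meningeal and 1 Cajal-Retzius, and in BP 7 astroglial and 1 Cajal-Retzius, a cell counting under each type it matched. Summed over the 15 astroglial markers, NBN cells ran from 0 over a median of 55.6 to 7786 TPM and BP cells from 28.3 over 96.3 to 1832 TPM. Gfap and Bcan were at 0 in every NBN cell, and Gfap, Aldoc, Aldh1l1, Tnc, Gja1 and Id3 in every BP cell. The 12 interneuron markers summed to between 0 and 6751 TPM in NBN cells (Dlx1, Sst and Slc32a1 at 0) and between 0.619 and 654 TPM in BP cells (Gad1, Dlx1, Dlx2, Dlx5, Sst and Slc32a1 at 0). The 6 meningeal markers reached 6695 TPM in 1 NBN cell and at most 4.602 TPM in BP cells, where Col1a2, Col3a1, Dcn and Lum were at 0. The 8 Cajal-Retzius markers reached 2754 TPM in an NBN cell and 1368 TPM in a BP cell. No cell of either library met the rule for microglia, endothelial, mural, choroid plexus, erythroid or oligodendrocyte lineage markers. Of all 10 lists 1 gene was called, S100b, lower in NBN (34.1 TPM in NBN and 71.4 TPM in BP, -1.05), which reached 1 TPM in 65 NBN and 61 BP cells. Most members did not enter: 4 of 15 astroglial and 3 of 12 interneuron markers did, and at most 2 of any other list. With 1.8% higher and 3.66% lower over all genes, 1 call does not set these lists apart. Without the cells that met the rule, 53 NBN and 53 BP cells gave 265 higher and 414 lower calls, of which 174 and 310 were calls with all kept cells.

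The higher and lower calls differed in how they were seen at E16.5. There 10683 genes entered and 612 (5.73%) were called higher and 95 (0.889%) lower in NBN, together 6.62%, with a median difference of 0.17. These counts move with the cells kept: with all cells 880 were higher and 41 lower, and with cells matched on genes per cell 543 were higher and 232 lower. Of the 184 genes higher at E18.5, 110 (59.8%) were also higher at E16.5 and 0 lower, and 173 had a positive difference. Of the 373 lower at E18.5, 22 (5.90%) were also lower at E16.5, 13 (3.49%) were higher, and 181 had a negative difference. Over the 5 alternatives run at both stages, the share of E18.5 calls seen again at E16.5 was 46.5% to 70.9% for higher and 3.39% to 7.23% for lower genes. Seen from E16.5, the shared genes were 18.0% of the higher and 23.2% of the lower calls. The median difference of the higher genes was 1.65 at E18.5 and 1.31 at E16.5, and that of the lower genes -1.54 at E18.5 and 0.01 at E16.5. Among the 22 lower at both stages were Eomes, Rnd2, Sema3c, Unc5d, Neurod1, Igfbpl1, Rasgef1b, Epha4, Nrg1, Fabp7, Pax6, Hdac9 and Ccnd2.

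**Figure D4:**
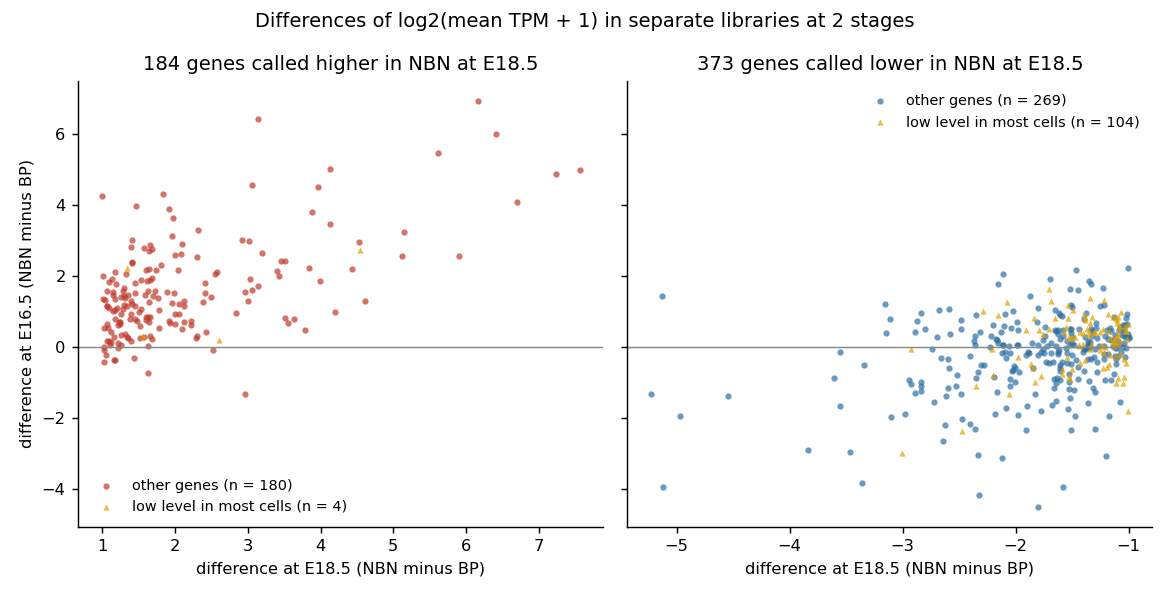
Each point is 1 gene called at E18.5, with its difference in log2(mean TPM + 1), NBN minus BP, at E18.5 on the horizontal and at E16.5 on the vertical axis. Of the 184 higher genes (left) 173 lie above 0 at E16.5, and of the 373 lower genes (right) 181 lie below 0; triangles are genes at a low level in most cells, 104 of the lower and 4 of the higher genes.

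Part of the lower calls were genes read at a low level in most cells. A class of such genes was set after seeing the data: 1 TPM or more in at least 80% of cells and a cell median of 1 to 30 TPM, each as the mean over both libraries. It holds 799 of the genes entered (7.83%), 104 of the 373 lower calls (27.9%) and 4 of the 184 higher calls. Over its genes the median of the cell medians was 6.23 TPM in NBN and 10.7 TPM in BP at E18.5, and 12.7 TPM in NBN and 7.32 TPM in BP at E16.5. The NBN median was the lower for 726 of the 799 at E18.5 (90.9%) and for 57 at E16.5 (7.13%). Genes per cell went the same way, with medians of 4809 in NBN and 4936 in BP at E18.5 and 5764 in NBN and 4608 in BP at E16.5. At E18.5 the median pair share was 0.37 over the class and 0.49 over the other 9399 genes entered. The part of this shift of the class in the lower calls was not tested. Without the class 180 higher and 269 lower calls were left. With values under 10 TPM set to 0 before cells were paired, 121 genes (1.19%) were called higher and 166 (1.63%) lower, together 2.81%, and 69 higher and 211 lower calls were lost.

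**Figure D5:**
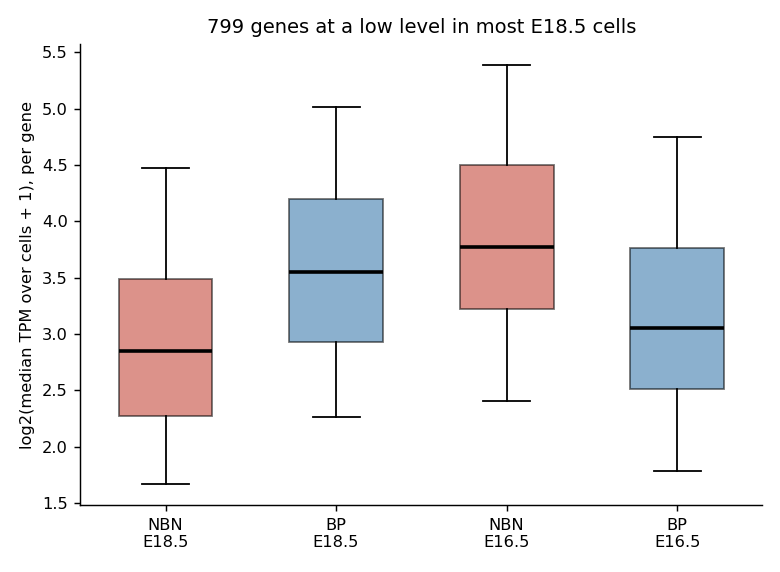
Boxes show, for the 799 genes read at a low level in most E18.5 cells, log2(median TPM over cells + 1) per gene in the NBN and BP libraries at E18.5 and E16.5, with the median, quartiles and whiskers from the 5th to the 95th percentile. The class sits lower in NBN than in BP at E18.5 (medians 6.23 and 10.7 TPM) and higher in NBN at E16.5 (12.7 and 7.32 TPM).

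Of the calls, 37 higher and 51 lower ones were models without a gene name, and 28 of the higher ones lie between positions 3049285 and 7643972 of chromosome 14, a run of near-identical copies. Reads cannot be assigned to single copies there, so these were only counted. The cDNA kit does not mark strand, so a gene and an overlapping or antisense partner cannot be told apart.

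The leading transcripts were placed among all NBN and BP libraries of the series. Mef2c averaged 443, 496, 689 and 263 TPM in NBN at E16.5, at E18.5, at P1 and at P3, against 27.1, 126, 13.2, 1.64 and 26.2 TPM in BP at E12.5, E14.5, E16.5, E18.5 and P0. Each of the 4 NBN libraries lay above each of the 5 BP libraries. Dab1 averaged 349, 352, 261 and 3.78 TPM in NBN at those stages, against 3.58, 118, 31.2, 19.1 and 64.4 TPM in BP. NBN at P3 was thus the exception, below 4 of the 5 BP libraries. Rnd2 averaged 32.2, 12.9, 8.09 and 45.5 TPM in NBN, against 680, 725, 508, 482 and 559 TPM in BP, and each NBN library lay below each BP library. Unc5d averaged 18.3, 17.8, 48.5 and 0.497 TPM in NBN, against 7.93, 26.3, 75.6, 161 and 211 TPM in BP, so the libraries of the 2 populations overlapped. Each of these libraries is 1 sample. NBN at P1 held a median of only 3189 genes per cell with 19.6% mitochondrial transcripts, and NBN at P3 3436 genes with 12.9%. At P3, 38 of 39 NBN cells met the rule for markers of another cell type, among them 25 for astroglial, 17 for microglia and 13 for meningeal markers. At P1 8 of 39 and at E16.5 14 of 63 NBN cells did so. The P3 values are therefore not those of a library of neurons alone.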

How the data were processed

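Single cells were captured on Fluidigm C1 arrays, and their cDNA was made with the SMARTer Ultra Low kit and Nextera XT, per the labels' protocols. The authors deposited TPM per gene and cell (23078 genes, 1094 cells, 17 libraries), for which kallisto 0.43.0 and the builds GRCm38.p2 and mm10 are given per the submitters' processing notes. For 7 near-empty cells the authors deposited only whole numbers, recorded here as a score, and the gene minimum removed them. Read depth cannot be had from TPM, so precision is given by cells per library and genes per cell.

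Cells with at least 1000 genes at 1 TPM were kept. Each gene's mean TPM over cells, log2 difference with a pseudocount of 1, pair share and shares of cells with exact Clopper-Pearson intervals at 95% were computed in Python 3.11.15 with NumPy, pandas and SciPy. The calls were also run on simulated cells, with both groups drawn from the BP library and only genes at a mean of 10 TPM or more changed. That check covers neither lower genes nor shifts between libraries. Genes entered at a mean of 1 TPM and detection in 10% of cells. Cells of 1 library are not replicates, so no test was made. No 2 of the 1094 columns were identical. Named genes are the 15 largest positive and 15 largest negative differences among called genes that reach 10 TPM in 1 library and have a gene name, and members of the lists. A few genes that this rule names are not reported here and stay in the counts. Runs of values for uncalled list members were picked after their values were seen. The members, lists and thresholds were chosen with earlier results of these data known. Of the gene IDs, 22361 matched GENCODE M21, whose GRCm38 coordinates are given and whose release differs from the files' own. Promoters are RefSeq's for GRCm38.p6. Alternatives changed the averaging, pseudocount, filter, cells kept, scaling and call rule.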

Additional observations from a re-analysis of the deposited data

Results flagged for a closer look

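The direction differed between the stages for 13 genes, called lower in NBN at E18.5 and higher in NBN at E16.5. They were 3.49% of the 373 lower calls at E18.5. Of all genes entered at E16.5, 5.73% were called higher there. The count of 13 therefore does not set the lower calls apart from all genes. Not all of the 13 are listed below. Differences at E18.5 were -1.68 for Anapc7, -1.34 for E2f7, -1.71 for Ercc6, -1.49 for Fadd, -1.35 for Gfod1, -1.26 for Gla, -1.45 for Hccs, -1.22 for Kif11, -2.16 for Lnp, -1.52 for Polk, -1.22 for Sord and -1.66 for Tmem198b. At E16.5 these ran from 1.02 for Tmem198b to 1.85 for Gfod1. The difference between the stages was not tested, since each stage has 1 library a side. The number of such genes was 38 with all cells, 32 with log2 values averaged over cells, 28 without cells holding markers of another type, 21 with cells matched on genes per cell and 2 with values under 10 TPM set to 0. Lnp was found at 10 TPM or more in 25 of 66 NBN and 38 of 61 BP cells at E18.5. With matched cells 1 gene was called higher at E18.5 and lower at E16.5, and with the other settings none.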

How the results depend on the processing

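The 184 higher and 373 lower calls at E18.5 moved most with the call rule: a difference of 2 gave 66 and 102, a pair share of 0.75 or 0.25 gave 30 and 86, and the difference alone 1584 and 1854. Lower calls numbered 199 at a pseudocount of 10. Setting values under 10 TPM to 0, chosen after seeing the data, gave 121 higher and 166 lower calls at E18.5 and 246 and 32 at E16.5, by its construction of dropping low values. At E16.5, lower calls numbered 41 with all cells and 232 with cells matched on genes per cell (39 NBN and 32 BP cells, chosen after seeing the data); for cells matched at E18.5 (49 NBN and 47 BP) the calls were 198 and 485. At 10 TPM the shares of cells were 77.3% in NBN and 6.56% in BP for Mef2c, 1.52% in NBN and 49.2% in BP for Eomes, and 6.06% in NBN for Rnd2. The difference of Eomes was 0.30 with all cells, where a near-empty NBN cell of 89 genes held it at 12342 TPM, and -6.75 without the highest cell of each library. Also without these highest cells Gfod1 gave 1.30, and it gave 1.92 with 2000 genes or more a cell and 1.56 with matched cells. The other 102 of 120 summary values stayed within their spread or 1.5 times. For the called genes reported, 1068 of 1216 values kept call and direction and 144 lost the call. No paired analysis was possible because the numbers in the labels only number cells and each group is 1 library with no test. Depth per cell is unknown, so a gene at 0 in a cell cannot be told apart from one missed there.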

Other observations

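Ranked by pairs of cells rather than by size, other genes stood beside Mef2c and Dab1; these were chosen after their values were seen. Runx1t1, a transcriptional corepressor, had a pair share of 0.89 and a difference of 3.14 at E18.5, and a pair share of 0.79 at E16.5. The cannabinoid receptor Cnr1 (pair share 0.78, difference 1.77) and the long non-coding RNA Meg3 (0.76 and 1.69) were also called higher at both stages. On the BP side the heterochromatin protein Cbx3 had a pair share of 0.07 (difference -1.77), the nuclear factor Nfib 0.12 (-1.73) and the zinc finger factor Zbtb20 0.16 (-2.34). Zbtb20 was called lower at both stages, Cbx3 and Nfib at E18.5 only, and the difference between the stages was not tested.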
